A study of Mus musculus with 16 samples.

Results

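Antigen presentation by the major histocompatibility complex (MHC) was followed through 8 genes chosen by name, *B2m*, *H2-K1*, *H2-D1*, *Tap1*, *H2-Aa*, *H2-Ab1*, *Cd74* and *Ciita*, out of 24421 genes listed in both matrices. All 8 were listed in both, and each had at least 1 unique molecular identifier (UMI), the tag that marks a single captured transcript. Class I molecules sit on nearly all nucleated cells and show peptides from inside the cell to CD8 T cells. They are built from a heavy chain, such as those of *H2-K1* and *H2-D1*, and the light chain from *B2m*, and they are loaded with peptides that the transporter of *Tap1* carries into the endoplasmic reticulum. Class II molecules show peptides taken up from outside to CD4 T cells, are built from an alpha chain such as that of *H2-Aa* and a beta chain such as that of *H2-Ab1*, travel with the invariant chain of *Cd74*, and are switched on by the transactivator of *Ciita*. They belong mainly to dendritic cells, macrophages and B cells, and intestinal epithelium is known to be able to make them as well.

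Crypt-enriched small intestine was taken from WT mice, labelled only as wild-type, and from ROBO mice at postnatal day 16, before weaning, with no treatment named for either group. ROBO mice carry the ROBO-Crainbow transgene with Villin-Cre, so that recombination in the intestinal epithelium leaves a mosaic of clones that express RSPO3, a PTPRK:RSPO3 fusion with the shorter PTPRK part or another with the longer PTPRK part; cells without recombination carry the fluorescent Mars1 reporter, the mice are outbred, and the allele of each cell was not analysed here. Libraries came from a droplet method that reads transcript 3′ ends. The labels list 8 samples per genotype, but the cells are named by genotype and a running number, so they could not be assigned to samples and shared barcodes could not be counted.

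Each genotype was therefore 1 pooled sample, with no test between genotypes. Every interval below is a 95% interval for counting error alone and leaves out the spread between mice and libraries. The WT matrix held 1348 cells and 2682127 UMIs, and the ROBO matrix held 1249 cells and 2428435 UMIs, against up to 2400 cells isolated per genotype in the study's methods. Median depth was 1492 UMIs per WT cell and 1610 per ROBO cell.

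Cells were clustered with MHC and interferon genes left out, so that the levels below did not decide the clusters. The immune-like cluster held 47 cells (27 WT, 20 ROBO) with 91618 UMIs, and 22 immune markers were raised in it. The other 11 clusters, 2550 cells (1321 WT, 1229 ROBO) with 5018944 UMIs, are called epithelial-like here. They were stem cell-like (785 cells), bottom, middle and top enterocyte-like (109, 501 and 237 cells), secretory-like with goblet and Paneth markers (125), enteroendocrine-like (29) and a pair left unnamed, led by *Dmbt1* and *Gsdmc4* (431) and by *Rn45s* and *Myl7* (333). The stem cell-like class joined clusters of 485 and 300 cells. The middle enterocyte-like class joined clusters of 276, 133 and 92 cells, led by *Cubn*, *Sis* and *Fosb*, so its levels are those of a mixed class. The cluster led by *Dmbt1* and *Gsdmc4* had 22 markers of transiently amplifying cells raised, but its 10 leading genes held more markers of another class. Clusters were named from such markers, so the marker sums that follow describe them and are no independent check. A list of 13 epithelial markers stood at 110 UMIs per 10000 in WT and 103 in ROBO epithelial-like cells, and at 26.5 and 10.004 in immune-like cells. A list of 9 pan-leukocyte markers stood at 0.118 and 0.180 in epithelial-like cells, with 2 of the 9 at 0 in each genotype, and at 82.6 and 93.8 in immune-like cells. Not every cell followed its cluster: 13 cells outside the immune-like cluster (6 WT, 7 ROBO) carried fibroblast or leukocyte markers, 8 of them fibroblast-marked and all 8 in the stem cell-like class. Results that rest on them are given with and without them.

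Positions are those of GENCODE M21 on GRCm38. *B2m* is at chr2:122147686-122153083 on the plus strand and *Ciita* at chr16:10480059-10528418 on the plus strand. Another 5 fall within 1.27 Mb of chromosome 17, the mouse MHC. They are *H2-K1* at chr17:33996017-34000347 (minus), *Tap1* at chr17:34187553-34197225 (plus), *H2-Ab1* at chr17:34257689-34269419 (plus), *H2-Aa* at chr17:34282744-34287823 (minus) and *H2-D1* at chr17:35262730-35267499 (plus). *Tap1* and *Psmb9* overlap at their 5′ ends on opposite strands. In the last 500 bases of the transcripts, where 3′ reads fall, *H2-D1* shared 0.939% of its 75-base words with another gene, *Gm49784*, which neither matrix lists, and the other members shared 0%.

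Promoters from RefSeq (GRCm38.p6, 250 bases before to 50 after the start) were held for 5 of the 8 members, not for *H2-Ab1*, *Cd74* and *Ciita*. The promoters of *B2m*, *H2-K1* and *H2-D1* are shown because each of these class I genes was higher in top enterocyte-like than in stem cell-like cells, and that of *H2-Aa* is shown as the class II counterpart. Each is written 5′ to 3′ on the strand of its gene, from chr2:122147437-122147736 (plus), chr17:34000298-34000597 (minus), chr17:35262844-35263143 (plus) and chr17:34287774-34288073 (minus) in that order. Capitals mark 4 searched motifs, read on both strands, none of which overlapped another here.
B2m: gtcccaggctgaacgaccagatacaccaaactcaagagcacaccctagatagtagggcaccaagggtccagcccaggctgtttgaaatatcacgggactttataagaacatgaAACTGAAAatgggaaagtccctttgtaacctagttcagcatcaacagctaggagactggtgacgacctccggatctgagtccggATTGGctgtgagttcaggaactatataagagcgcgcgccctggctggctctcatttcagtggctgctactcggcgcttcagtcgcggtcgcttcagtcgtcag
H2-K1: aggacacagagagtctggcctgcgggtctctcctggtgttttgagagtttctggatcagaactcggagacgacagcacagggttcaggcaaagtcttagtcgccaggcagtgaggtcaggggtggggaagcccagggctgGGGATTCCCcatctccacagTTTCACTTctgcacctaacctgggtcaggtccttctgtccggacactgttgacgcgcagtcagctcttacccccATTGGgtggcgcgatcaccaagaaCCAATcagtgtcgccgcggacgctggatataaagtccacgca
H2-D1: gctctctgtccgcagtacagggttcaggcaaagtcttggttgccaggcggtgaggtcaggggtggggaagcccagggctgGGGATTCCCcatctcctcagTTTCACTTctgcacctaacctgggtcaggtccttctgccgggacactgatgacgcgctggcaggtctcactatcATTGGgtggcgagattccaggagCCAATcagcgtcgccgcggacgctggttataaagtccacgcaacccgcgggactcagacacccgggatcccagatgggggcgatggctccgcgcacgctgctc
H2-Aa: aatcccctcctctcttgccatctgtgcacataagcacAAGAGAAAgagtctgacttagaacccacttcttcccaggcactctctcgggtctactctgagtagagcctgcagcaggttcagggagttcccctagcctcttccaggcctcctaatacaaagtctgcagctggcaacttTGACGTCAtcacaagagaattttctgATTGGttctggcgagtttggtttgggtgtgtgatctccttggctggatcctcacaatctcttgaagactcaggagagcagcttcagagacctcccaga

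The core bound by interferon regulatory factors (IRF), AANNGAAA, was found at bases 114 to 121 of the *B2m* window, counted from 1 at its 5′ end, and on the other strand at bases 161 to 168 of *H2-K1* and 101 to 108 of *H2-D1*. It was also at bases 38 to 45 of *H2-Aa* and in 23.9% of 32851 mouse promoters. The NF-kappaB core GGGATTCCC was found at bases 141 to 149 of *H2-K1* and 81 to 89 of *H2-D1*, and in 0.353% of promoters. *H2-Aa* held the CRE-like X2 box TGACGTCA at bases 177 to 184, a motif found in 1.79% of promoters. The Y box core CCAAT, which reads ATTGG on the other strand, was in all 5 member promoters that were held and in 37.4% of all promoters. These are matches of letters and not measured binding.

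Transcripts of *B2m*, *H2-K1* and *H2-D1* were found in every epithelial class and in the immune-like cluster, while class II transcripts were concentrated in the immune-like cluster, with 234 UMIs in 9 of its 47 cells against 111 UMIs in 81 of 2550 epithelial-like cells. Over both matrices *B2m* had 10332 UMIs, *H2-K1* 3830, *H2-D1* 2009, *Tap1* 168, *H2-Ab1* 184, *H2-Aa* 99, *Cd74* 62 and *Ciita* 4. Levels below are UMIs of the gene per 10000 UMIs of the class. They are not divided by transcript length, so they are compared between classes of cells and not between genes.

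*B2m* stood at 17.9 in WT and 21.3 in ROBO epithelial-like cells, and at 58.1 and 60.0 in immune-like cells. *H2-K1* stood at 6.84 and 7.58 in epithelial-like and 22.8 and 25.7 in immune-like cells. *H2-D1* stood at 3.65 and 3.84 against 13.6 and 16.0. For all 3 the immune-like level was the higher in both genotypes, and no interval of an immune-like level reached that of an epithelial-like one. With both genotypes summed, the log2 ratio of epithelial-like over immune-like cells was -1.59 for *B2m* (-1.72 to -1.46), -1.73 for *H2-K1* (-1.93 to -1.53) and -1.96 for *H2-D1* (-2.21 to -1.69), which is 3.02-fold, 3.32-fold and 3.88-fold lower in epithelial-like cells.

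*Tap1* was sparse. It had 81 UMIs in 69 WT and 77 UMIs in 69 ROBO epithelial-like cells, a level of 0.309 and 0.322, against 2 UMIs in 2 WT and 8 UMIs in 7 ROBO immune-like cells, a level of 0.353 and 2.29. The log2 ratio of epithelial-like over immune-like cells was -1.79 (-2.71 to -0.71) with both genotypes summed. In ROBO alone the ratio was -2.83 (-3.88 to -1.57). In WT it was -0.20, with a wide interval from -2.09 to 2.88 that held 0 and met that of ROBO.

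**Figure D1:**
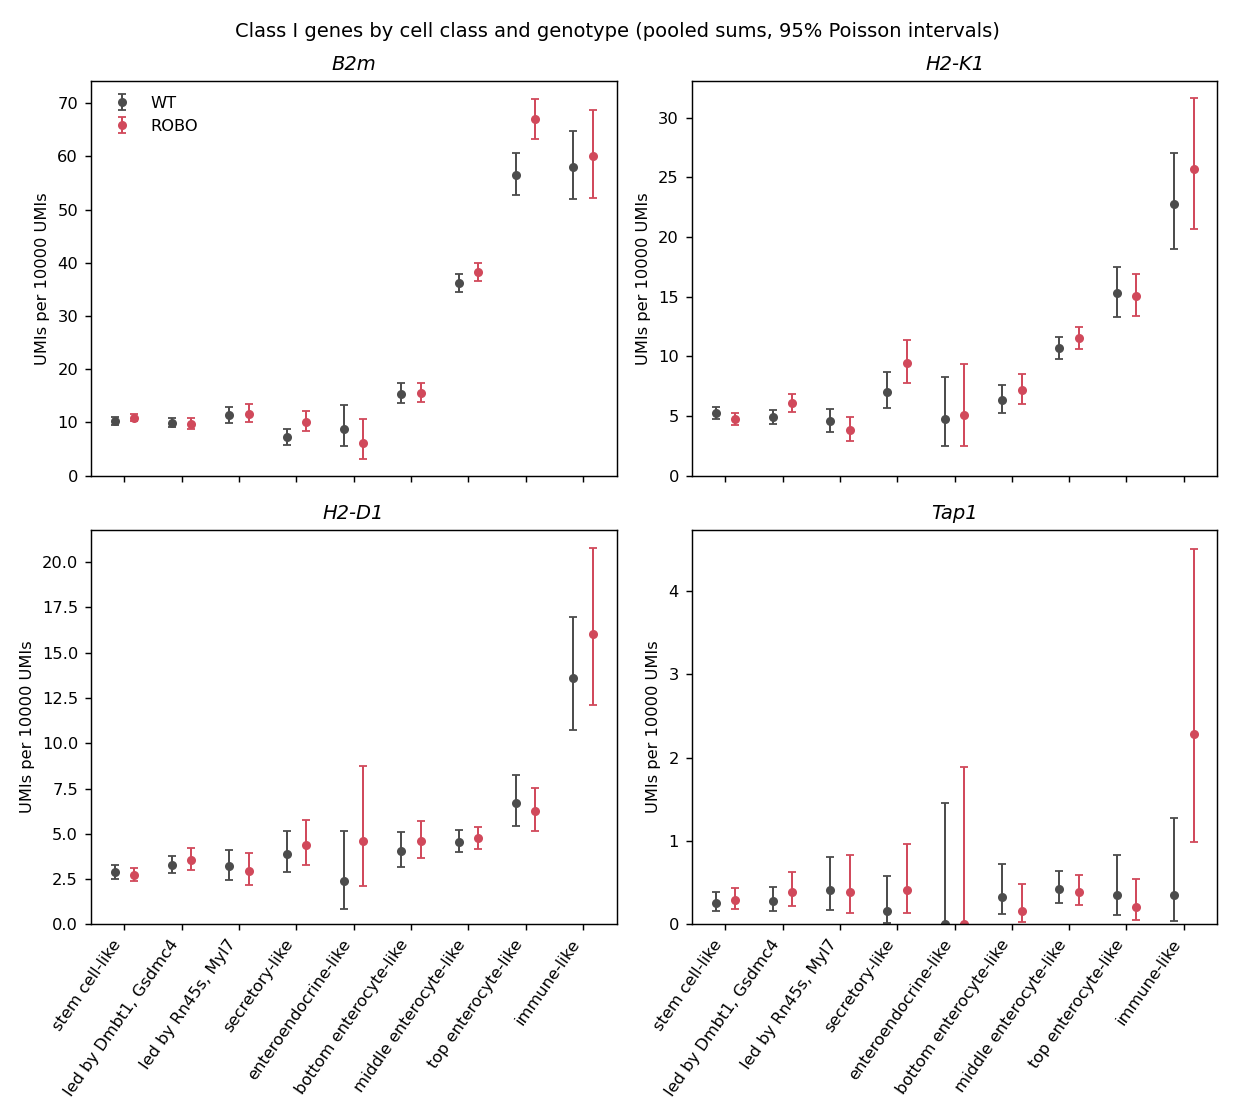
Level of *B2m*, *H2-K1*, *H2-D1* and *Tap1* (UMIs of the gene per 10000 UMIs of the class, linear axis from 0) in each class of cells, with WT in grey, ROBO in red and bars for 95% Poisson intervals of counting error. *B2m* was as high in top enterocyte-like cells (62.5 over both genotypes) as in immune-like cells (58.8), whereas *H2-K1* and *H2-D1* were highest in immune-like cells.

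The epithelial classes did not share a single class I level. *B2m*, the light chain common to all class I molecules, was 10.2 in WT and 10.9 in ROBO stem cell-like cells, 15.4 and 15.6 in bottom, 36.1 and 38.2 in middle and 56.6 and 67.0 in top enterocyte-like cells. It was thus higher in each named enterocyte class than in the one before, in both genotypes. Top enterocyte-like over stem cell-like cells gave a log2 ratio of 2.57 (2.47 to 2.66), a 5.92-fold difference, with 2.47 in WT and 2.62 in ROBO.

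The level in top enterocyte-like cells and in immune-like cells could not be told apart by counting error for *B2m*, with a log2 ratio of immune-like over top enterocyte-like of -0.09 (-0.23 to 0.05). At the other end, the clusters led by *Rn45s* and *Myl7* (11.4) and by *Dmbt1* and *Gsdmc4* (9.85) and the stem cell-like (10.6), secretory-like (8.62) and enteroendocrine-like cells (7.58) made a group in which no neighbour in the order was separated from the next. Directly compared, secretory-like cells were lower in *B2m* than stem cell-like cells by a log2 ratio of -0.29 (-0.51 to -0.09).

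*H2-K1*, a classical heavy chain, was 5.24 in WT and 4.73 in ROBO stem cell-like cells, 10.7 and 11.5 in middle and 15.3 and 15.0 in top enterocyte-like cells, and 7.02 and 9.45 in secretory-like cells. Its difference between top enterocyte-like and stem cell-like cells was smaller than that of *B2m*, with a log2 ratio of 1.60 (1.44 to 1.77) whose interval lies below that of *B2m*. The order ran immune-like, top, middle, secretory-like, bottom and then the rest, and each step down to bottom enterocyte-like cells was larger than counting error. Unlike *B2m*, *H2-K1* was higher in secretory-like than in stem cell-like cells, by a log2 ratio of 0.72 (0.49 to 0.94).

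*H2-D1*, the second classical heavy chain measured, was 2.87 in WT and 2.73 in ROBO stem cell-like cells, 4.56 and 4.75 in middle, 6.73 and 6.26 in top enterocyte-like cells, and 3.91 and 4.39 in secretory-like cells. Only the steps from immune-like to top and from top to middle enterocyte-like cells were separated along its order. The log2 ratio of top enterocyte-like over stem cell-like cells was 1.21 (0.97 to 1.44), and that of secretory-like over stem cell-like cells was 0.57 (0.24 to 0.88). Both heavy chains were lower in top enterocyte-like than in immune-like cells, where immune-like over top gave 0.66 (0.42 to 0.89) for *H2-K1* and 1.17 (0.84 to 1.49) for *H2-D1*.

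*Tap1*, in contrast, was 0.276 in stem cell-like and 0.274 in top enterocyte-like cells with both genotypes summed, a log2 ratio of -0.01 (-1.22 to 1.04) on 46 and 9 UMIs. Along its order only immune-like and middle enterocyte-like cells were separated. This interval lay below those of *B2m* and *H2-K1* and met that of *H2-D1*.

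Shares of cells with a UMI were compared after each cell was thinned to 912 UMIs, which left out 364 WT and 285 ROBO cells below that depth. *B2m* was then found in 58.1% of stem cell-like, 88.3% of middle and 95.6% of top enterocyte-like cells, 47.8% of secretory-like cells and 97.3% of immune-like cells. *H2-K1* was found in 35.1%, 61.5%, 70.3%, 47.8% and 78.4% of the same classes. Before thinning, *B2m* was in 77.8% and *H2-K1* in 60.5% of all 2550 epithelial-like cells, against 66.4% and 44.7% after it. Most epithelial-like cells thus had a *B2m* transcript even at that depth.

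The class II genes were at low levels in the epithelial-like cells. *H2-Aa* had 62 UMIs in WT and 24 in ROBO immune-like cells, a level of 10.9 and 6.86, against 9 and 4 UMIs in epithelial-like cells, a level of 0.0343 and 0.0167. *H2-Ab1* had 67 and 35 UMIs, a level of 11.8 and 10.004, against 42 and 40 UMIs, a level of 0.160 and 0.167. *Cd74*, a gene of chromosome 18, had 37 and 9 UMIs, a level of 6.53 and 2.57, against 6 and 10 UMIs, a level of 0.0229 and 0.0418.

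The smallest of these differences was that of *H2-Ab1* in ROBO, where the immune-like level was 59.9 times the epithelial-like level. The log2 ratio of epithelial-like over immune-like cells was -8.50 for *H2-Aa* (-9.47 to -7.65), -6.09 for *H2-Ab1* (-6.53 to -5.66) and -7.30 for *Cd74* (-8.22 to -6.45). Summed over the 3 genes, the level was 0.221 in epithelial-like cells and 25.5 in immune-like cells, a 115-fold difference (log2 ratio -6.85, -7.19 to -6.52), and it was -7.08 in WT and -6.43 in ROBO. The 3 class I genes *B2m*, *H2-K1* and *H2-D1* summed gave -1.68 (-1.77 to -1.58) in the same comparison.

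All 7 members with at least 20 UMIs were at least 2-fold lower in epithelial-like than in immune-like cells. Over all 10634 genes tested, 17.8% were at least 2-fold lower and 35% at least 2-fold higher, 52.8% in all, with a median log2 ratio of 0.28 against -1.96 over the 7 members. In top enterocyte-like over stem cell-like cells, 3 of the 5 members tested were at least 2-fold higher, against 11.8% of 9083 genes, with 44.8% of genes at least 2-fold lower and a median of -0.81. Of the 3, *H2-D1* gave 0.95, under 2-fold, when ribosomal protein genes and *Rn45s* were left out of the total.

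**Figure D2:**
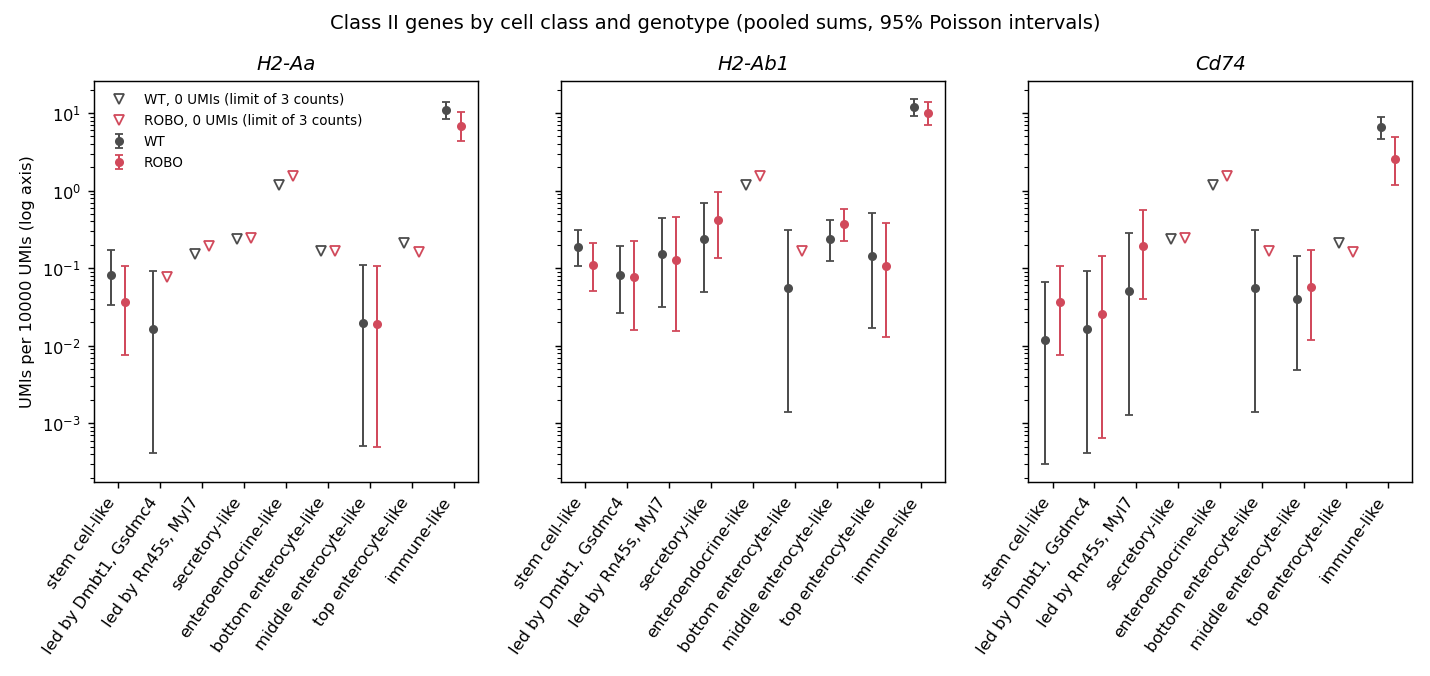
Level of *H2-Aa*, *H2-Ab1* and *Cd74* (UMIs of the gene per 10000 UMIs of the class, log axis) in each class of cells by genotype, with 95% Poisson intervals; open triangles stand for 0 UMIs and are drawn at the level that 3 UMIs would give. *H2-Ab1* was 11.1 over both genotypes in immune-like cells and at most 0.325 in any epithelial class.

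The class II UMIs of the immune-like cluster came from few cells. All 234 lay in 9 of the 47 cells (7 WT, 2 ROBO), each with at least 3. A ROBO cell held 64 of them, with 23 of *H2-Aa*, 35 of *H2-Ab1* and 6 of *Cd74*, and a pair of WT cells held 62 and 50. These 3 cells carried 27.4%, 26.5% and 21.4% of the immune-like class II UMIs, and the other 6 cells held 4 to 21 each. Of the 9, 6 had UMIs of all 3 genes.

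Their other markers differed. The WT cell with 62 class II UMIs was the deepest of the 9, with 6388 UMIs, and also had 76 UMIs of epithelial markers. A WT cell with 15 class II UMIs had 8 UMIs of B cell markers, 4 of them *Cd79b*. A WT cell with 5 class II UMIs had 54 UMIs of macrophage, dendritic and mast cell markers, 17 of them from the complement gene *C1qb*, and another with 6 had 4 UMIs of the dendritic cell receptor gene *Flt3*.

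Immune-like cells rich in T and NK cell transcripts had no class II UMI. The 9 cells with class II had 0 to 4 UMIs of T and NK markers, and the other 38 had 0 to 447. The 22 cells with at least 10 T and NK UMIs (11 WT, 11 ROBO) held 0 class II UMIs among 51180, and 0 of 22 allows up to 13.6% of such cells to hold a class II UMI, a limit on capture and not on expression. In the other 25 cells (16 WT, 9 ROBO) the class II level was 57.9 and 9 cells, or 36%, had a class II UMI. Class I did not divide in this way. *B2m* was 57.2 (50.9 to 64.2) in the 22 cells and 60.8 (53.5 to 68.9) in the 25, and *H2-D1* was 15.6 (12.4 to 19.5) and 13.1 (9.82 to 17.1). *H2-K1* was the higher in the T and NK-rich cells, at 29.5 (25.0 to 34.6) against 16.8 (13.1 to 21.3).

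**Figure D3:**
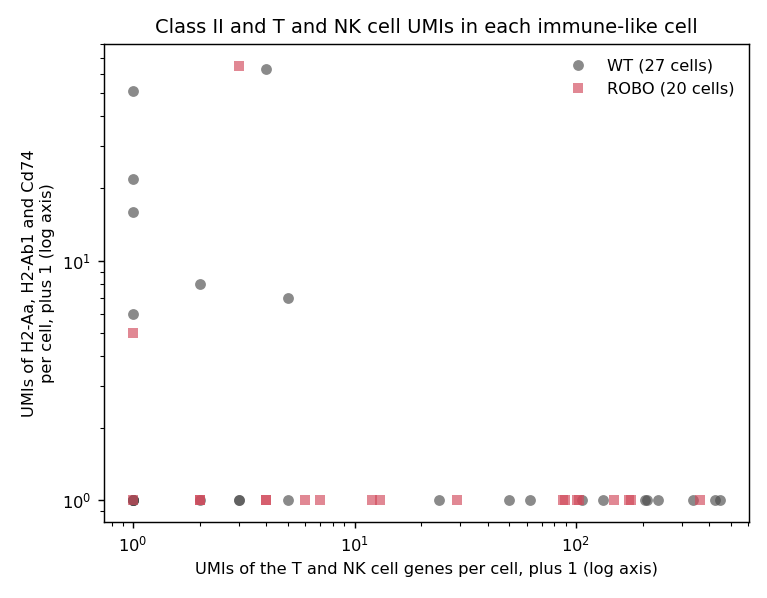
Each point is an immune-like cell (27 WT in grey, 20 ROBO in red), placed by its UMIs of T and NK cell markers and its summed UMIs of *H2-Aa*, *H2-Ab1* and *Cd74*, both plus 1 on log axes. The 9 cells with class II UMIs all lie at 4 T and NK UMIs or fewer.

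Outside the immune-like cluster, 111 class II UMIs were spread over 81 of 2550 cells. Of these cells 64 had 1 UMI, 13 had 2 and 4 had 3 or more, and no cell had all 3 genes. After thinning, 2.15% of cells (1.54 to 2.90; 41 of 1911) had a class II UMI, against 18.9% of immune-like cells (7 of 37), at median depths of 1546 and 1749 UMIs per cell before thinning. Without thinning the shares were 3.18% and 19.1%. Shares of single leukocyte genes are given beside those of the class II sum as a description only. Such genes helped to shape and name the immune-like cluster, which lowers their epithelial-like shares. Among the pan-leukocyte, T and NK cell genes *Lck* and *Lcp1* were highest relative to immune-like cells, with 21 and 44 UMIs in epithelial-like cells without other markers. *Ptprc*, which encodes the leukocyte antigen CD45, was in 0.0523% of the thinned epithelial-like cells, the granzyme gene *Gzma* in 0.314%, and the T cell receptor subunit gene *Cd3g* in 0 of 1911, which allows up to 0.157%.

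The single epithelial-like cell with the most class II UMIs was a WT cell of the stem cell-like class, with 7 of *H2-Aa* and 5 of *H2-Ab1* among 590 UMIs, and it also had 8 leukocyte marker UMIs. It held 7 of the 13 *H2-Aa* UMIs of all epithelial-like cells. Without the 13 cells with fibroblast or leukocyte markers, 6 UMIs of *H2-Aa*, 76 of *H2-Ab1* and 15 of *Cd74* were left, and the log2 ratio of epithelial-like over immune-like cells for *H2-Aa* moved from -8.50 to -9.61.

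*H2-Ab1* made up most of what was left in epithelium. It gave 82 of the 111 epithelial-like class II UMIs (73.9%), in 65 cells, of which 61 had no *H2-Aa* or *Cd74* UMI. In immune-like cells it gave 102 of 234 (43.6%), next to 86 of *H2-Aa* and 46 of *Cd74*. The ratios of *H2-Ab1* and *H2-Aa* between the same cells, given above, had intervals that did not meet.

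Leukocyte genes were set beside these traces as a description only, since such genes shaped and named the immune-like cluster and served to remove cells, both of which lower their values, whereas MHC genes did neither. Without the cells with other markers, the epithelial-like level of 20 pan-leukocyte, T and NK cell genes was between 0% and 0.820% of their immune-like level, with a median of 0.0394%. *H2-Ab1* stood at 1.37%, *Cd74* at 0.598%, the second class II beta chain gene *H2-Eb1* at 0.589% and *H2-Aa* at 0.128%. *B2m*, *H2-K1* and *H2-D1* stood at 33.0%, 29.98% and 25.5% on the same scale. The source of the *H2-Ab1* UMIs was not tested.

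**Figure D4:**
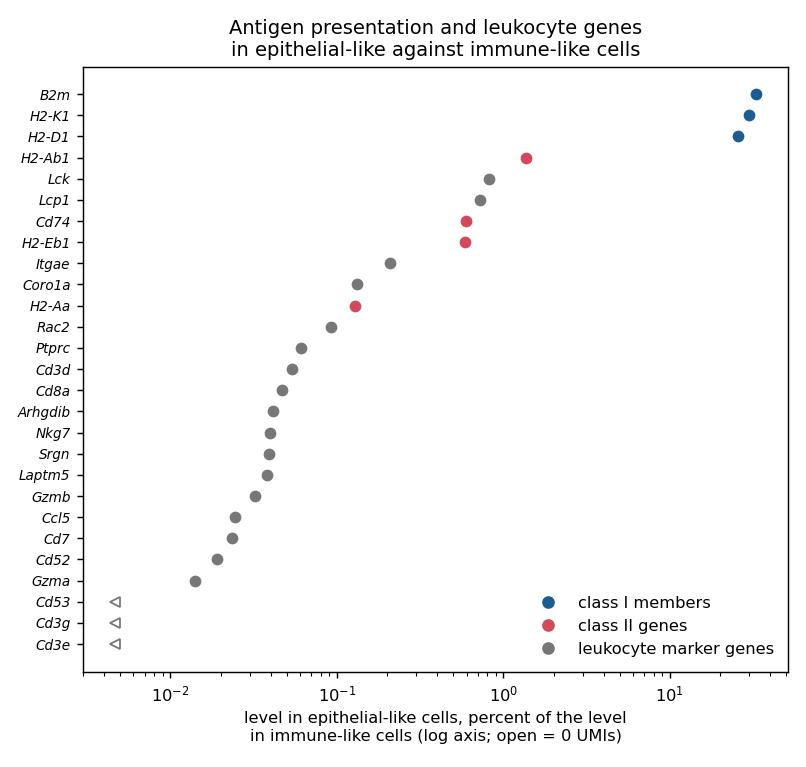
Level in epithelial-like cells as a percentage of the level in immune-like cells (log axis), without the 13 cells with other markers, for 3 class I members, 4 class II genes and 20 leukocyte genes; open triangles stand for 0 UMIs in epithelial-like cells. The class I members lie between 25.5% and 33.0%, *H2-Ab1* at 1.37% and the 20 pan-leukocyte, T and NK cell genes at 0.820% or less. B cell, macrophage, dendritic and mast cell markers are not shown.

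Among the epithelial classes *H2-Ab1* was 0.304 in middle enterocyte-like cells (31 UMIs in 25 cells), 0.325 in secretory-like (8 UMIs in 5 cells), 0.150 in stem cell-like (25 UMIs in 20 cells) and 0.122 in top enterocyte-like cells (4 UMIs in 3 cells). With both genotypes summed, middle enterocyte-like cells were higher than stem cell-like cells by a log2 ratio of 1.02 (0.21 to 1.84). In ROBO alone this ratio was 1.74 (0.53 to 3.07) on 19 and 9 UMIs. In WT it was 0.34 (-0.87 to 1.51) on 12 and 16 UMIs, which held 0. Top enterocyte-like cells were not separated from stem cell-like cells (-0.30, -2.28 to 1.24). *H2-Aa* and *Cd74* had 0 UMIs in top enterocyte-like, secretory-like and enteroendocrine-like cells. A count of 0 there still allows a level of up to 0.0915, 0.122 and 0.669. Of the class II gene sum, thinned shares were 2.03% in stem cell-like, 3.97% in middle and 1.27% in top enterocyte-like cells.

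*Ciita* was hardly captured. Its 4 UMIs lay in 3 ROBO epithelial-like cells, with 2 and 1 in stem cell-like cells and 1 in the cluster led by *Rn45s* and *Myl7*, and none of the 3 cells had a class II UMI. No UMI was found in WT or in the 47 immune-like cells, where 0 allows a level of up to 0.327 and a share of up to 6.38% of cells. The class II-positive immune-like cells thus gave no reading of their transactivator at this depth.

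The genotypes were then set side by side within each class. In epithelial-like cells as a whole, *B2m* was higher in ROBO than in WT by a log2 ratio of 0.25 (0.20 to 0.31), *H2-K1* by 0.15 (0.05 to 0.24), and *H2-D1* gave 0.07 (-0.06 to 0.20). *Tap1* gave 0.06 (-0.41 to 0.53) and *H2-Ab1* 0.06 (-0.60 to 0.72). None of the 5 members tested was 1.5-fold different, against 9.05% of 10462 genes (4.64% higher and 4.42% lower in ROBO).

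Part of the *B2m* difference moved with the make-up of the samples. Top enterocyte-like cells numbered 131 in ROBO and 106 in WT, and cells of the cluster led by *Dmbt1* and *Gsdmc4* 167 and 264. With each cluster given the same weight in both genotypes, the log2 ratio was 0.11 for *B2m*, 0.06 for *H2-K1* and 0.03 for *H2-D1*.

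Within the 8 epithelial classes *B2m* was higher in ROBO in 6, with intervals above 0 in top enterocyte-like (0.24, 0.11 to 0.37) and secretory-like cells (0.49, 0.09 to 0.90). *H2-K1* was higher in 5 of 8, with intervals above 0 in secretory-like cells (0.43, 0.01 to 0.85) and the cluster led by *Dmbt1* and *Gsdmc4* (0.30, 0.05 to 0.55). *H2-D1* was higher in 5 of 8 with no interval that left 0. No interval of these 3 genes lay below 0 in any epithelial class. In top enterocyte-like cells, where *B2m* differed, *H2-K1* gave -0.02 (-0.28 to 0.24) and *H2-D1* -0.10 (-0.50 to 0.30).

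**Figure D5:**
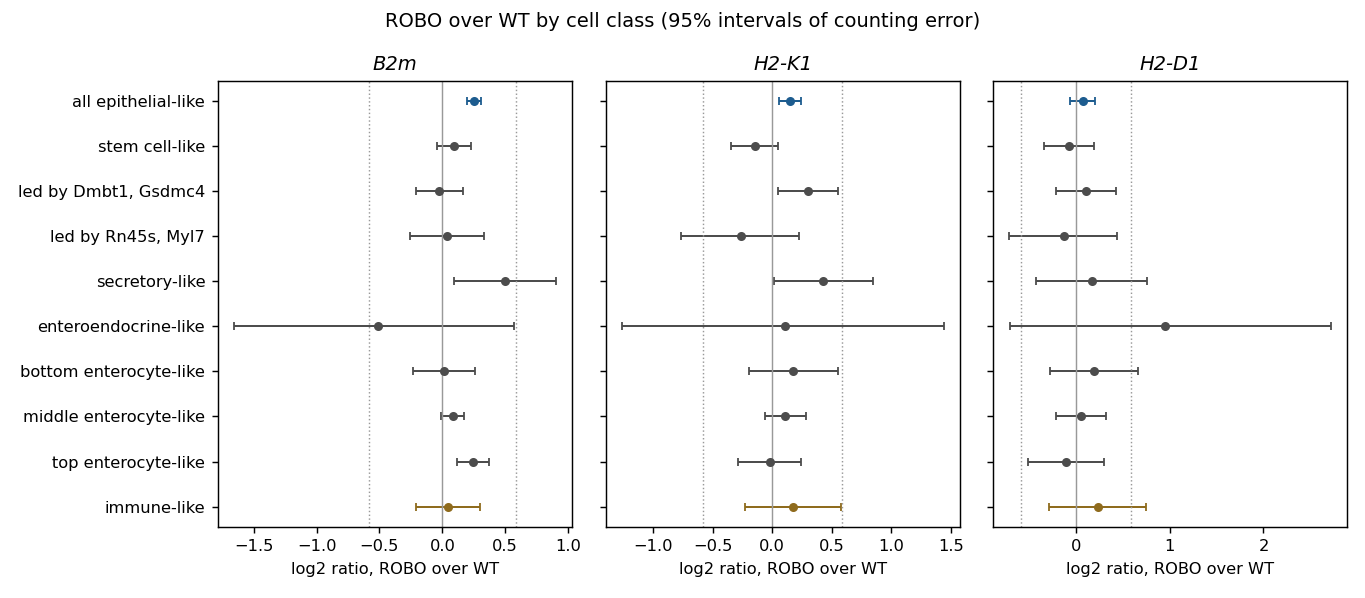
Log2 ratio of ROBO over WT for *B2m*, *H2-K1* and *H2-D1* in each class of cells, with 95% conditional exact intervals of counting error; dotted lines mark 1.5-fold in either direction. Intervals lie above 0 for *B2m* in top enterocyte-like and secretory-like cells and for *H2-K1* in secretory-like cells and the cluster led by *Dmbt1* and *Gsdmc4*.

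In immune-like cells the class I members were within counting error of each other between genotypes, with log2 ratios of ROBO over WT of 0.05 (-0.21 to 0.30) for *B2m*, 0.18 (-0.23 to 0.58) for *H2-K1* and 0.24 (-0.29 to 0.75) for *H2-D1*. *Tap1* was higher in ROBO, by 2.69 (0.37 to 5.97), on 8 against 2 UMIs. Class II was lower in ROBO over the 3 genes summed, by -0.59 (-1.02 to -0.18), and single genes gave -0.67 (-1.42 to 0.03) for *H2-Aa*, -0.24 (-0.88 to 0.37) for *H2-Ab1* and -1.34 (-2.58 to -0.27) for *Cd74*. These rest on 7 WT cells and 2 ROBO cells. Without the cell with the most UMIs of the gene sum in each genotype, the class II value was -4.10, since 64 of the 68 ROBO UMIs came from 1 cell.

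The immune-like cells of the genotypes also differed in their markers. The 15 macrophage, dendritic and mast cell markers stood at 35.8 per 10000 in WT, with 3 markers at 0, and at 242 in ROBO, with 6 at 0. The highest single cell stood at 887 per 10000 in WT and at 2304 in ROBO. In ROBO most UMIs of these markers came from that cell, so the higher ROBO value rests on it. The 7 B cell markers stood at 2.12 in WT and at 0 in ROBO, and the 13 T and NK markers at 396 and 374. The part of this make-up in the *Tap1* and class II values was not tested.

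The other genes of the pathway were counted in 5 lists of 89 genes in the matrices. Of the other class I heavy chains, 8 of 20 were tested in epithelial-like over immune-like cells. Of these 8, 4 were at least 2-fold higher and 4 at least 2-fold lower, next to 35% and 17.8% of all genes. Among the 4 lower ones, the intervals of *H2-Q4* (-1.90, -3.54 to 0.43) and *H2-M3* (-1.38, -4.02 to 3.99) held 0. Of the 4 higher ones 2 had 0 UMIs in immune-like cells, and of these *H2-Q10* (46 against 0) is not above immune-like cells taken at 3 UMIs. *H2-T3*, which encodes the nonclassical thymus leukaemia antigen, had 804 UMIs, all in epithelial-like cells, at least 4.89-fold higher than in immune-like cells taken at 3 UMIs. *H2-Bl* had 1011 UMIs in the epithelial classes and 2 in the immune-like cluster (3.21 on the log2 scale, 1.35 to 6.25), and *H2-Q1* had 382 and 1 (2.80, 0.32 to 8.11). *H2-T23*, whose product is the mouse counterpart of HLA-E, gave -1.24 (-2.06 to -0.27). All 5 genes of this list tested were at least 2-fold higher in top enterocyte-like than in stem cell-like cells, next to 11.8% of all genes. The log2 ratio was 3.08 for *H2-K2* (15 and 9 UMIs), 2.80 for *H2-T23*, 2.52 for *H2-Bl*, 1.47 for *H2-T3* and 1.44 for *H2-Q1*. GENCODE lists *H2-K2* as a transcribed unprocessed pseudogene and *H2-Bl* as a polymorphic pseudogene, so these need not encode a heavy chain. Counts of the *H2-T* and *H2-Q* genes are uncertain, since some of their 3′ ends share long words, up to 39.4% for *H2-T10*.

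*Fcgrt* encodes the neonatal Fc receptor, which pairs with the *B2m* light chain and carries milk antibodies across the suckling gut. It stood at 1.89 in stem cell-like, 32.9 in middle and 133 in top enterocyte-like cells and at 0.764 in immune-like cells (7 UMIs). Its log2 ratio of top enterocyte-like over stem cell-like cells was 6.14 (5.97 to 6.31), and that of epithelial-like over immune-like cells was 4.48 (3.44 to 5.80), the opposite side from *B2m*. ROBO over WT gave 0.39 (0.32 to 0.45) in epithelial-like cells as a whole, and 0.06 (-0.03 to 0.14) within top and 0.11 (0.01 to 0.21) within middle enterocyte-like cells. In secretory-like cells it was on the other side, at -1.99 (-3.43 to -0.77) on 7 and 29 UMIs. Of the other partners of *B2m*, the iron regulator *Hfe* had 37 UMIs against 0 and is not above immune-like cells taken at 3 UMIs. The lipid-presenting *Cd1d1* was lower in epithelial-like cells, at 0.0219 (11 UMIs) against 0.327 (3 UMIs) in immune-like cells. Its log2 ratio was -3.90 (-5.82 to -1.42).

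Of the genes that make and load class I peptides, 13 were tested. In epithelial-like over immune-like cells 4 were at least 2-fold lower and 0 higher, next to 17.8% and 35% of all genes, and in top enterocyte-like over stem cell-like cells 2 were higher and 3 lower, next to 11.8% and 44.8%. *Tap2*, the partner of *Tap1* in the peptide transporter, gave -1.88 (-2.98 to -0.53) in the first comparison. The tapasin gene *Tapbp* gave -0.73 and then 0.79. The immunoproteasome genes *Psmb8*, *Psmb9* and *Psmb10* gave -0.99, -1.20 and 0.10 in the first comparison and 1.12, -0.40 and -0.37 in the second. *Psmb10* stood apart in the first and *Psmb8* in the second, while the intervals of the other two met. The proteasome activator gene *Psme1* gave 0.02 and then -0.59. The chaperone gene *Calr* gave 0.30 and then 0.25, and *Canx*, another chaperone of heavy chains, 0.23 and then -1.53. Between genotypes *Pdia3*, a thiol oxidoreductase of the loading complex, was lower in ROBO, at -0.81 (-1.18 to -0.45), and *Calr* stood at -0.48 (-0.59 to -0.37). *Nlrc5*, the class I transactivator, had 1 UMI in the epithelial classes and 9 in the immune-like cluster.

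Of the other class II genes, 8 of 14 were tested in epithelial-like over immune-like cells. Of these 8, 1 was at least 2-fold higher and 3 lower, next to 35% and 17.8% of all genes. The higher one, *Rfx5*, rests on 70 against 0 UMIs and is not above immune-like cells taken at 3 UMIs. *H2-Eb1* gave -7.21 (-7.86 to -6.59), an interval that met that of *Cd74* and not that of *H2-Ab1*, and *H2-Eb2* had 0 UMIs. The peptide-exchange gene *H2-DMa* gave -3.23 on 35 and 6 UMIs, and *H2-Oa* and *H2-Ob*, which hold that exchange back, had 8 and 6 UMIs in immune-like cells and 0 in epithelial-like cells. The lysosomal enzymes that serve class II are also used elsewhere in the cell and differed from these. *Ctss* gave -1.61, *Ifi30* 0.82 and *Lgmn* 0.42, and top enterocyte-like over stem cell-like cells gave 3.09 and 4.98 for *Ctss* and *Lgmn*.

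Interferon response genes, of which 26 of 35 were tested, were at least 2-fold lower in epithelial-like than in immune-like cells for 15 and higher for 5, next to 17.8% and 35% of all genes. Of the 5, *Ifit3* (40 against 0 UMIs) and *Oasl2* (99 against 0) are not above immune-like cells taken at 3 UMIs. The others, *Stat2* (1.48, -1.02 to 6.79), *Irgm1* (1.03, -1.48 to 6.35) and *Ifit1* (1.65, -0.85 to 6.96), had 1 immune-like UMI each. Their intervals held 0. Among the lower ones, the intervals of *Irf2* (-1.08, -2.09 to 0.15) and *Ifit2* (-1.05, -2.97 to 2.03) also held 0. In top enterocyte-like over stem cell-like cells, 8 of 20 were at least 2-fold higher and 1 lower, next to 11.8% and 44.8% of all genes. *Ifit1*, an RNA-binding antiviral gene, gave 7.77 (5.88 to 10.84) on 86 and 2 UMIs, *Oasl2* 4.07 (3.15 to 5.09) and *Stat2*, which carries the type I interferon signal, 4.28 (3.46 to 5.17). The interferon gamma receptor genes *Ifngr1* and *Ifngr2* gave -1.26 (-1.79 to -0.67) and 0.39 (-0.36 to 1.27) in epithelial-like over immune-like cells, and the transcription factor genes *Irf1* and *Irf8* 0.52 (-0.42 to 1.65) and -1.76 (-2.25 to -1.23). *Ifng*, a cytokine known to induce both classes of MHC genes, had 1 UMI in all cells, in an immune-like cell. Between genotypes 3 of 25 interferon response genes were at least 1.5-fold higher in ROBO epithelial-like cells and 0 lower. Of the 3, *Ifit3* gave 1.72 (0.65 to 2.92) on 30 and 10 UMIs. The intervals of *Ifit2* (0.63, -0.21 to 1.49) and *Irgm2* (1.13, -0.27 to 2.68) held 0. Over the 5 lists together, 4 of 56 genes were higher and 3 lower, next to the 4.64% and 4.42% of all genes.

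The genes with the most similar pattern were found by Pearson's r of log levels over 18 points, the 9 classes of each genotype, among 7458 genes. These points share 2 matrices and their depth, so r is only a description. The 3 most similar genes were *Pnrc1* (0.94), *Samd9l* (0.92) and *H2-T23* (0.90) for *B2m*. They were *Itm2b* (0.94), *H2-D1* (0.93) and *Ahnak* (0.92) for *H2-K1*, and *H2-K1* (0.93), *Jak1* (0.91) and *Vps37b* (0.88) for *H2-D1*. For the sparse *Tap1* they were *Atp5s* (0.92), *Nufip2* (0.90) and *Ppp1r12a* (0.89). They were *H2-Eb1* (0.95), *Rac2* (0.94) and *Tyrobp* (0.94) for *H2-Ab1*.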

How the data were processed

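Cells from crypt-enriched small intestine were captured with a droplet isolator and a 3′ kit with UMIs. The authors processed the reads in BaseSpace, and the deposited values are UMI counts of each gene in each cell, 1 matrix per genotype, with no normalization. The submitters' processing notes name GRCm38 and mm10; the aligner is not given in the sources used here.

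Seurat 5.3.0 (R 4.3.3) clustered all cells on 20 principal components of 2000 variable genes, from which 108 MHC, antigen and interferon genes were left out, with phase scores regressed and a resolution of 0.8. Clusters were named from markers raised 1.5-fold in at least 10% of cells, at least 3 of them; this rule was set after the clusters were seen. Clusters whose 10 leading genes held more markers of another class stayed unnamed, as did the shallow cluster led by *Rn45s*. Scrublet (scanpy 1.11.5) called 2 WT and 4 ROBO doublets, which were kept. Markers of another type meant at least 20 fibroblast or 5 leukocyte UMIs.

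UMIs were summed per class and scaled to 10000. Exact Poisson, Clopper-Pearson and conditional exact 95% intervals came from scipy 1.17.1. Genes with at least 20 UMIs over both groups were tested for fold, 2-fold between classes and 1.5-fold between genotypes, without p-values. A count of 0 is given with the limit of 3 counts. Genes named are the members, the 4 genes with the most UMIs of each other list, genes chosen by role (*Fcgrt*, *H2-Eb1*, *H2-Eb2*, *H2-DMa*, *Tap2*, *Tapbp*, *Psmb8*, *Psmb9*, *Psmb10*, *Nlrc5*, *Irf1* and *Ifng*), cell markers and the 3 genes most like each member. *Pdia3*, *H2-T10*, *H2-Oa*, *H2-Ob*, *H2-K2*, *H2-Q4*, *H2-Q10*, *H2-M3*, *Rfx5*, *Ifit1*, *Ifit2*, *Ifit3*, *Irf2*, *Irgm1*, *Irgm2*, *Oasl2* and *Stat2* were named after their values were seen. A further gene of this rule is not reported here. Positions were matched for 92 of 99 genes. Alternatives covered clustering settings, depth, doublets, TMM factors (edgeR 4.0.16), scaling and weights. The members and lists were chosen with earlier results of these data known. The scripts were tested on simulated data.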

Additional observations from a re-analysis of the deposited data

How the results depend on the processing

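Values are log2 ratios unless said. No called value changed sign; 109 values of the main results and 336 of single genes stayed within their spread, and 31 and 29 did not. For the 3 class I genes summed, epithelial-like over immune-like cells gave -1.55 without regression of phase scores, at resolutions of 0.5 and 1.2 and without doublets, and -1.45 with TMM factors, against -1.68; the first 4 settings put 55 cells in the immune-like cluster. In those 4 settings, ROBO over WT in immune-like cells gave -0.12 against 0.11, within counting error of 0. ROBO over WT in epithelial-like cells gave 0.086 with equal cluster weights against 0.21. Top enterocyte-like over stem cell-like cells, 2.20, gave 2.33 with antigen genes kept in the clustering, 2.34 at a resolution of 0.5 and with 30 components, 2.29 at 1.2, 2.37 with at least 500 genes per cell, 2.33 without doublets, 2.68 with TMM factors and 1.94 without ribosomal protein genes and *Rn45s* in the total. TMM factors moved every gene by 0.23 in epithelial-like over immune-like cells, 0.48 in top over stem and -0.17 between genotypes in immune-like cells. For class II summed, epithelial-like over immune-like cells gave -6.45 with equal weight per cell against -6.85, and ROBO over WT in immune-like cells gave -4.10 without the top cell of each genotype against -0.59. The epithelial-like share of cells with class II was 3.18% unthinned against 2.15%. *H2-Aa*, ROBO over WT in epithelial-like cells, ranged from -3.00 to 1.74 on its 13 UMIs. Of all listed genes, those higher in epithelial-like cells numbered 6 with 1 UMI required in each group against 12, and those lower 17 at 4-fold against 33. Between top and stem, 4-fold gave 12 higher and 2 lower against 22 and 4. Between genotypes, 4 higher and 3 lower became 2 and 1 with at least 50 UMIs, 9 and 5 with 1 UMI in each group and 2 and 1 at 2-fold. The cause of these changes was not tested. No paired analysis was possible because the cell names carry the genotype and a running number and not the replicate, and leaving out a replicate could not be run for the same reason. *Ciita*, with 4 UMIs, could not be compared at this depth.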
